A study of Mus musculus with 45 samples.

Results

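The mitosis genes studied here are a named list of 42 genes whose products run cell division, from the cyclins that start mitosis to the proteins that cut the daughter cells apart. They were followed in NIH-3T3 cells, a line of mouse embryonic fibroblasts that divides in culture. For each gene, the probe set with the highest mean over all arrays was used, among those annotated with that gene symbol alone. This gave a value for 41 of the 42 genes, out of 13232 genes measured in the same way, and Ccnb1, which encodes cyclin B1, was not analysed here. Of the 41 genes, 30 had 2 or more probe sets and 11 had 1.

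RNA was measured on 45 Affymetrix arrays in 11 groups, all from cells at passages 5 to 15, plated at 40% density 24 h earlier and at about 80% density at the start. Total RNA was taken before treatment and after 1 h and 2 h in 5 µg/ml actinomycin D, a drug that blocks transcription. Other cultures received 4-thiouridine (4sU), a nucleoside that is built into RNA while it is made, so that newly transcribed RNA can be separated from unlabelled, pre-existing RNA. Newly transcribed RNA was measured after 15 min and 30 min at 500 µM and after 60 min at 200 µM, total RNA at 30 min and 60 min of labelling, and pre-existing RNA at 60 min. A further experiment with 60 min at 200 µM gave newly transcribed and total RNA under the label 2F, which is not explained. Titles of the 15 min and 60 min samples also carry the unexplained word mock. The groups comprised 3 arrays, or 9 in the case of both fractions at 30 min. The line is a single established one, and the cells were not synchronised as far as the labels say. Whether replicates are separate cultures is not given, and p-values therefore reflect only array-to-array spread, which may be technical.

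Most mitotic transcripts are made late in the cell cycle. In the standing view, their promoters are held silent in resting and early-cycle cells by the DREAM complex and are opened in G2 by complexes of B-MYB and FOXM1 that share its MuvB core. MuvB touches DNA at the cell cycle homology region, or CHR, whose canonical letters are TTTGAA, and the factor NF-Y binds CCAAT boxes nearby. The proteins are then removed by ubiquitin ligases during and after mitosis, so that both synthesis and decay of these products recur in each cycle.

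To show what these genes share that the choice of the list did not use, RefSeq promoter windows of 300 bases (250 before to 50 after the annotated start, mouse build GRCm38.p6) were searched on both strands for TTTGAA and CCAAT. These motifs can share at most 1 letter. A window was found for 36 of the 42 genes, Ccnb1 among them. TTTGAA was present in 26 of 36 windows (72.2%), against 18.1% of all 27025 windows in the table, 16.5% of the 17491 windows of protein-coding genes, 18.4% of 38 windows of G1/S and replication genes and 40.2% of 97 windows of the other mitotic lists described below. CCAAT was present in 27 of 36 windows, against 37.9% of all windows, 63.2% of the G1/S windows and 60.8% of those of the other mitotic lists. Both motifs occurred together in 22 of 36 windows (61.1%), against 7.12% of all windows and 30.9% of those of the other mitotic lists. Of 34 TTTGAA matches, 27 lay within 50 bases of the start, in 25 genes, and 19 genes had 2 or more CCAAT matches. A match is a description of letters and not a measured binding site.

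The windows below run from 120 bases before to 30 bases after the start, 5′ to 3′ on the gene's strand, with TTTGAA and CCAAT (or ATTGG, its other strand) in capitals. Ccnb2, Cdc20 and Cenpa are shown as windows that hold both motifs from genes not called after actinomycin D, and Ccnf, Kif20b and Aurka as those of the genes with the largest falls. They lie at chr9:70421525-70421674 on the minus strand (Ccnb2), chr4:118437314-118437463 minus (Cdc20), chr5:30666766-30666915 plus (Cenpa), chr17:24251380-24251529 minus (Ccnf), chr2:172370541-172370690 minus (Aurka) and chr19:34922238-34922387 plus (Kif20b).
Ccnb2: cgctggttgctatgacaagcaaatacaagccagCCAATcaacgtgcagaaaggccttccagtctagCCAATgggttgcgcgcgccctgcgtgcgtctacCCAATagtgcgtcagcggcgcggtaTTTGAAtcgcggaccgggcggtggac
Cdc20: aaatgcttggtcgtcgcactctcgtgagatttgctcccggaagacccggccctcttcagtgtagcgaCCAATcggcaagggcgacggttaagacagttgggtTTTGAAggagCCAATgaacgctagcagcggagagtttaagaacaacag
Cenpa: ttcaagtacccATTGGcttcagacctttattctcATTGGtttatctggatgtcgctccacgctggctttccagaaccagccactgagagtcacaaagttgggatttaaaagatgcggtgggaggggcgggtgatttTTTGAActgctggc
Ccnf: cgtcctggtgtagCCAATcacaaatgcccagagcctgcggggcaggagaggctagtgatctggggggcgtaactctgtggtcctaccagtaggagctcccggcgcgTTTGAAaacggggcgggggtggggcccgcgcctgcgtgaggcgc
Aurka: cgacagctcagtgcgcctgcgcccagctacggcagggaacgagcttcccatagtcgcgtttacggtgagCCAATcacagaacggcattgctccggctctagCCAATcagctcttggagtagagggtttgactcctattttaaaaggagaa
Kif20b: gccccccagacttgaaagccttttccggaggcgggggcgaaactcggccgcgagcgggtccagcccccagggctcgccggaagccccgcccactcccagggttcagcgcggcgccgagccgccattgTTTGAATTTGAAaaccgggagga
Ccnb2 has 3 CCAAT boxes upstream of its TTTGAA, and Kif20b has TTTGAA 2 times in direct succession and no CCAAT in this window. The TTTGAA of Aurka begins 33 bases after the start, just outside the stretch shown.

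Values are the deposited intensities, given per array, and differences are on the log2 scale with the standard error from limma. Calls needed at least a 2-fold change and an adjusted p under 0.05, with the Benjamini-Hochberg adjustment made over the whole set of probe sets fitted. All 41 genes passed the filter on mean level (a mean log2 of 5, an intensity of 32) in each comparison. The fibroblast markers fixed for the check were all 10 above that level, with a summed intensity of 55904 to 90438 per array, and the 3 epithelial, 1 leukocyte, 2 endothelial and 1 muscle markers measured were all below it. Some arrays stand apart. In total RNA at 60 min the 3 arrays of the first experiment correlated at 0.834 to 0.952, and in newly transcribed RNA at 60 min the first array correlated with the other 2 at 0.830 and 0.831, while all other groups of 3 arrays reached 0.977 or more. The 9 arrays at 30 min resembled each other in sets of 3 whose numbers are 3 apart (median correlation 0.991 within sets and 0.932 between them in newly transcribed RNA), so values with each such set averaged to 1 are given beside the 30 min results.

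Blocking transcription asks which of these transcripts are lost within 1 h or 2 h. Ccnf, which encodes cyclin F, the substrate receptor of a ubiquitin ligase that restrains centrosome duplication and ribonucleotide reductase, fell most and already at 1 h. Its intensity was 289, 286 and 289 before the drug, 91.0, 100.5 and 69.7 after 1 h, and 15.8, 14.1 and 10.6 after 2 h, so the 3 groups did not overlap. The log2 difference was -1.74 ± 0.17 at 1 h (adjusted p = 0.000243) and -4.44 ± 0.17 at 2 h (adjusted p = 1.64e-07). At 2 h all 3 arrays lay below an intensity of 32, where the size of a fold change is uncertain, and a second probe set of Ccnf fell by 2.86 on the log2 scale.

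Kif20b, a kinesin needed to complete cytokinesis, measured 517, 508 and 486 before the drug, 360.3, 328 and 345 at 1 h and 122, 145 and 137 at 2 h. Its difference was -0.55 ± 0.10 at 1 h, short of 2-fold, and -1.90 ± 0.10 at 2 h (adjusted p = 8.27e-07). Kif20b has 4 probe sets, of which 1 other passed the filter and gave -0.38 at 2 h with an adjusted p of 0.287. The mean of all 4, which includes those below the filter, gave -0.65, short of 2-fold. Aurka, the Aurora A kinase that matures centrosomes and builds spindle poles, measured 405, 484 and 469 before, 381, 362 and 394 at 1 h and 162, 171 and 158 at 2 h. The difference was -1.46 ± 0.11 at 2 h (adjusted p = 4.72e-06), of which -1.21 was between 1 h and 2 h. With the mean of all probe sets of the gene, the Aurka value at 2 h was -0.76 and not called.

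Incenp, the scaffold of the chromosomal passenger complex, measured 1395, 2179 and 1960 before, 1209, 2025 and 1805 at 1 h and 716, 969 and 993 at 2 h. The 2 h arrays lay below all others, and the difference was -1.04 ± 0.23 (adjusted p = 0.00717). Same-numbered arrays of Incenp moved together, and with the replicate number as a block the adjusted p was 0.000122. All 3 other probe sets of Incenp were also lower at 2 h, by -0.91, -1.01 and -2.47, although 1 of them was higher at 1 h (1.17). Because it lies so near to 2-fold, the Incenp call was lost with median centring (-0.98) and without untreated replicate 2 (-0.91), untreated replicate 3 (-0.98) or 2 h replicate 1 (-0.89).

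**Figure D1:**
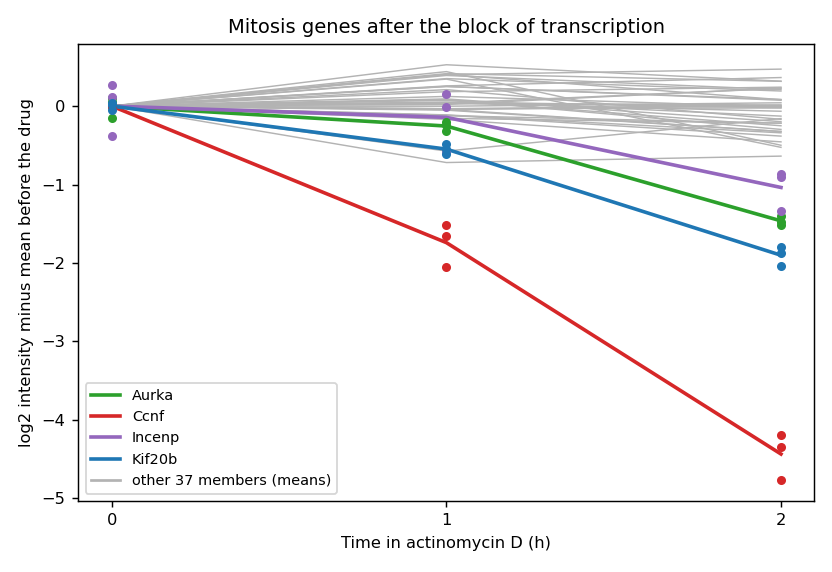
Log2 intensity of each mitosis gene minus its mean before the drug (vertical axis) against hours in actinomycin D (horizontal axis); lines join group means and points are single arrays of the 4 genes called at 2 h. At 2 h Ccnf lies at -4.44, Kif20b at -1.90, Aurka at -1.46 and Incenp at -1.04, and the grey lines of the other 37 genes lie between -0.72 and 0.53.

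Counted over the list, 1 of 41 mitosis genes was lower at 1 h and 0 were higher, where 3.97% of all genes tested were lower and 0.699% were higher. At 2 h, 4 of 41 were lower and 0 higher, against 10.9% lower and 0.294% higher among all genes, so the share of mitosis genes lost was near that of all genes. Between 1 h and 2 h, Ccnf, Kif20b and Aurka were lower and 0 genes higher, against 7.55% of all genes lower. The median difference of the 41 genes was 0.04 at 1 h and -0.07 at 2 h, beside 0.03 and 0.06 for all genes. With quantile normalization the all-probe-set split at 2 h was 1198 lower and 305 higher instead of 1419 and 81, and from 1 h to 2 h 790 and 524 instead of 1103 and 343, while the mitosis gene counts at these comparisons did not change.

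At any fold, 4 of 41 mitosis genes were lower and 6 higher at 1 h with an adjusted p below 0.05, against 16.3% and 17.3% of all genes. Besides Ccnf and Kif20b, the lower ones were Espl1 (-0.72), the protease separase that cuts cohesin, and Cdc25b (-0.57), a phosphatase that activates Cdk1. The higher ones were Cdca3 (0.53), Ndc80 (0.44), Nuf2 (0.41), Mad2l1 (0.40), Nusap1 (0.39) and Ttk (0.34). Ndc80 and Nuf2 are partners in the kinetochore complex that grips microtubules, and Mad2l1 and Ttk belong to the spindle checkpoint. At 2 h, 10 were lower and 1 higher, against 21.5% and 14.3% of all genes. The lower ones beyond the 4 called were Ttk (-0.53), Ndc80 (-0.50), Nek2 (-0.46), Ccna2 (-0.32), Top2a (-0.32) and Cdk1 (-0.30), and the higher one was Ccnb2 (0.36), the gene of cyclin B2.

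Relative to the other transcripts on the arrays, Ttk and Ndc80 thus stood above their starting level at 1 h and below it at 2 h. Normalized intensities do not give the amount of RNA per cell, so a rise in amount was not measured. Ttk measured 166, 208 and 176 before, 222, 241 and 233 at 1 h and 117, 134 and 129.7 at 2 h, with no overlap between the 3 groups. Ndc80 measured 259.98, 319 and 249 before, 381, 389.9 and 347 at 1 h and 185, 215 and 184 at 2 h, again without overlap. Cdk1, the kinase that drives entry into mitosis, measured 1872, 2051 and 2078 before and 1689.9, 1595 and 1593 at 2 h. The anaphase activator Cdc20 measured 3168, 3309 and 3161 before and 2915, 2812 and 2845 at 2 h, a difference of -0.17 that did not pass the test although the groups did not overlap, and its second probe set gave -0.31 with an adjusted p of 0.0431.

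The other lists of cell cycle genes, written from general knowledge, held further genes that fell at 2 h, none by as much as Ccnf. Beside the counts below, 10.9% of all genes tested were lower at 2 h and 0.294% higher, and no list was tested against that share. In the APC/C and mitotic exit list, 2 of 23 were lower, led by Fbxo5 (-3.81 ± 0.19), the inhibitor of the anaphase-promoting complex also called Emi1, and Cdc14a (-1.02 ± 0.15). In the list of other mitotic regulators, 4 of 22 were lower, led by Wee1 (-3.92 ± 0.27), the kinase that holds Cdk1 inactive, and Fam83d (-2.30 ± 0.21). Among other kinetochore and spindle genes, 7 of 43 were lower, led by the kinesins Kif18b (-3.06 ± 0.20) and Kif18a (-2.72 ± 0.21). Among condensin and cohesin genes, 2 of 20 were lower, the cohesin protectors Sgo1 (-1.96 ± 0.15) and Cdca5 (-1.91 ± 0.12). Among transcriptional regulators of mitotic genes, 5 of 17 were lower, led by the repressor E2f8 (-2.21 ± 0.12) and by Nfya (-1.85 ± 0.31), a subunit of NF-Y. In the G1/S and replication list, 5 of 42 were lower, led by E2f3 (-2.49 ± 0.11) and the replication licensing factor Cdt1 (-2.34 ± 0.19). No gene of these lists was called higher at 2 h.

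Newly transcribed RNA compared with total RNA asks which transcripts are made fast relative to their amount. Both fractions were put on arrays and normalized as intensities, so a ratio is relative to the other transcripts on the arrays and not a rate. Of the 41 mitosis genes, 28 had a value below 0 in all 3 experiments, beside 44.3% of the 8024 genes tested in all 3, and Ccnf and Incenp alone were above 0 in all 3, beside 30.6% of all genes. The median was -0.63 at 30 min, -0.53 at 60 min and -0.49 in the 2F experiment, beside -0.33, -0.21 and -0.04 for all genes. Other probe sets of these genes had the same sign as the one used in 24 of 34, 24 of 32 and 24 of 33 cases.

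At 30 min, 8 of 41 mitosis genes were lower in newly transcribed RNA and 1 was higher, against 29.1% and 14.4% of all genes. With the arrays averaged in sets of 3, 8 were lower and 0 higher, and 5 were lower without the second set. At 60 min in the first experiment 15 were lower and 1 higher, against 24.6% and 15.6%. That count ranged from 8 lower without replicate 3 of total RNA, and 9 without its replicate 2, to 14 without replicate 1. It was 8 lower and 2 higher with the mean of all probe sets of a gene. In the 2F experiment, whose arrays correlated at 0.981 or more within each fraction, 11 were lower and 1 higher, against 22.5% and 18.8%. On the probe sets used, the share of lower mitosis genes was thus below that of all genes at 30 min and above it in both 60 min experiments. These differences were not tested. With the mean of all probe sets of a gene, 8 of 38 were lower in the first 60 min experiment, beside 1504 of 7203 genes. In 2F they were 8 of 38 beside 1537 of 7358, so both shares were then near those of all genes.

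The genes lower in all 3 experiments, 6 of 41 beside 15.5% of all genes, were Cdca3, Ccnb2, Pttg1, Kif20a, Cenpa and Birc5. Cdca3, which targets Wee1 for destruction at mitotic entry, measured 68.0, 64.3 and 62.3 in newly transcribed and 446, 442 and 424 in total RNA of the 2F experiment. The groups lay far apart, with a log2 difference of -2.75 ± 0.08 (adjusted p = 8.38e-08). It was -2.26 ± 0.15 at 30 min and -2.91 ± 0.40 in the first 60 min experiment. Ccnb2 measured 53.1, 55.4 and 76.0 in newly transcribed and 254, 256 and 243 in total RNA, a difference of -2.05 ± 0.14 (adjusted p = 1.07e-06). At 30 min it ranged over 45.8, 72.8 and 114 (lowest, median and highest) in newly transcribed RNA and 211, 245 and 263 in total RNA.

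Pttg1, the securin that restrains separase, measured 166, 153 and 156 in newly transcribed and 700.3, 710.2 and 772 in total RNA of the 2F experiment (-2.20 ± 0.09, adjusted p = 1.03e-07). Kif20a, a kinesin of the central spindle, measured 109, 89.2 and 119 against 424, 447 and 411 (-2.02 ± 0.12, adjusted p = 4.60e-07). Cenpa, the histone H3 variant that marks centromeres, measured 417, 358 and 408 against 1467, 1637 and 1587 (-1.99 ± 0.10, adjusted p = 2.05e-07). Birc5, which encodes survivin of the chromosomal passenger complex, measured 404, 414 and 408 against 1120, 1139 and 1191 (-1.49 ± 0.08, adjusted p = 3.38e-07). In none of these 4 genes did the 2 fractions overlap.

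A further 11 genes were lower in 1 or 2 of the experiments, so that 17 were lower in at least 1, beside 36.4% of all genes. Among them the first 60 min experiment gave the lowest values for Nusap1 (-2.50 ± 0.42), Bub1 (-2.27 ± 0.44) and Ttk (-2.08 ± 0.63). These rest in part on 1 array of newly transcribed RNA, the one that stands apart: Ttk measured 14.2 there and 89.97 and 84.3 on the other 2, Nusap1 51.8 against 172 and 154, and Bub1 72.8 against 277 and 230.03. In the 2F experiment the same genes gave -1.23, -1.13 and -0.81. By role, the spindle checkpoint and anaphase genes had a median of -0.81 in the 2F experiment with 3 of 8 lower, where 22.5% of all genes were. The 7 kinesins had a median of -0.38 with 1 lower, and the 7 kinases and passenger genes one of -0.27 with 2 lower. For 23 of the 41 genes no experiment gave a call, beside 40.6% of all genes, among them Cdk1 (0.16 in the 2F experiment), Ccna2 (0.07) and Top2a (-0.21).

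**Figure D2:**
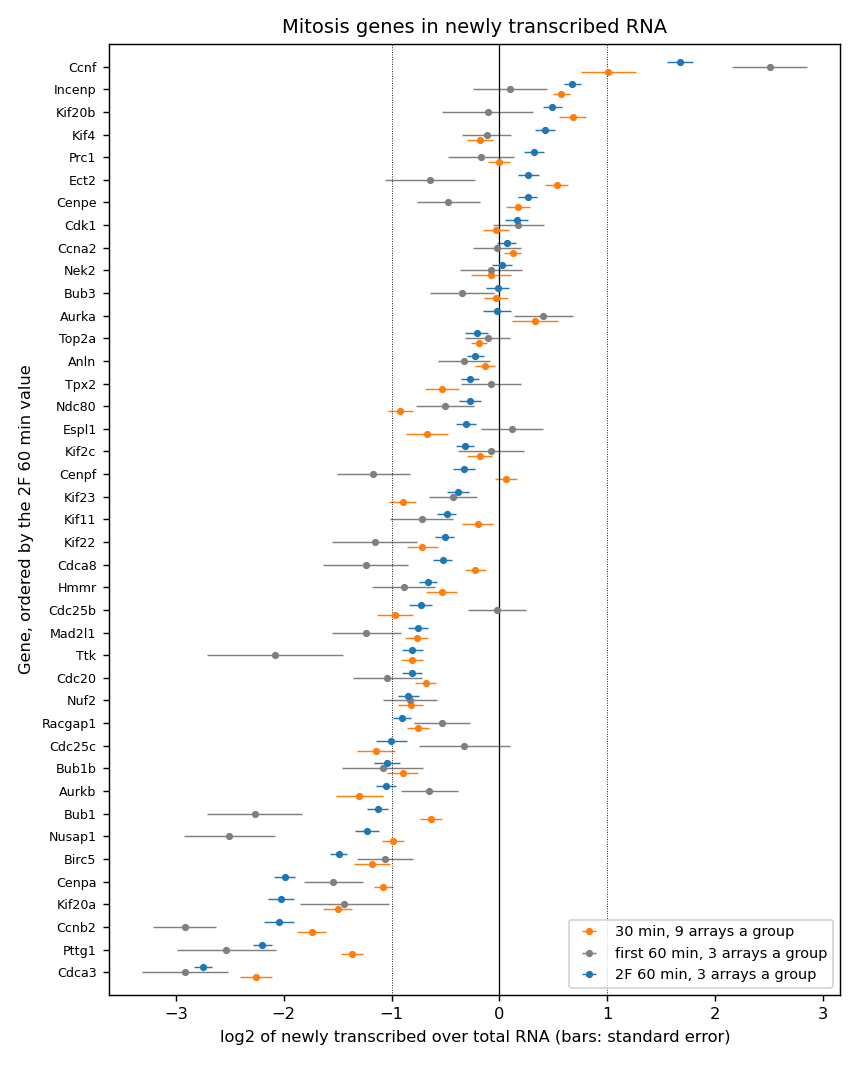
Log2 of newly transcribed over total RNA for each mitosis gene (horizontal axis, with standard errors from limma as bars) in the 3 experiments, with genes ordered by the 2F value and dotted lines at 2-fold. Ccnf alone lies beyond 2-fold to the right in all 3, and Cdca3, Ccnb2, Pttg1, Kif20a, Cenpa and Birc5 lie beyond it to the left in all 3.

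Ccnf was the mitosis gene richest in newly transcribed RNA. In the 2F experiment it measured 369, 354 and 474 in newly transcribed and 119, 123 and 129 in total RNA, a log2 difference of 1.68 ± 0.12 (adjusted p = 1.71e-06). In the first 60 min experiment it measured 683, 534 and 514 against 165, 61.9 and 99.9 (2.51 ± 0.35, adjusted p = 0.000445). At 30 min the newly transcribed arrays ranged over 204, 301 and 756 and the total arrays over 131, 184 and 258, so these groups overlapped. The value of 1.01 ± 0.25 at 30 min (adjusted p = 0.00115) had an adjusted p of 0.0698 with the arrays averaged in sets of 3. The genes that fell with Ccnf after actinomycin D were not called: Incenp gave 0.68 and Kif20b 0.49 in the 2F experiment, both with an adjusted p below 0.05, and Aurka gave -0.02. The probe sets of Incenp disagreed here, from -0.50 to 2.15 in the 2F experiment.

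**Figure D3:**
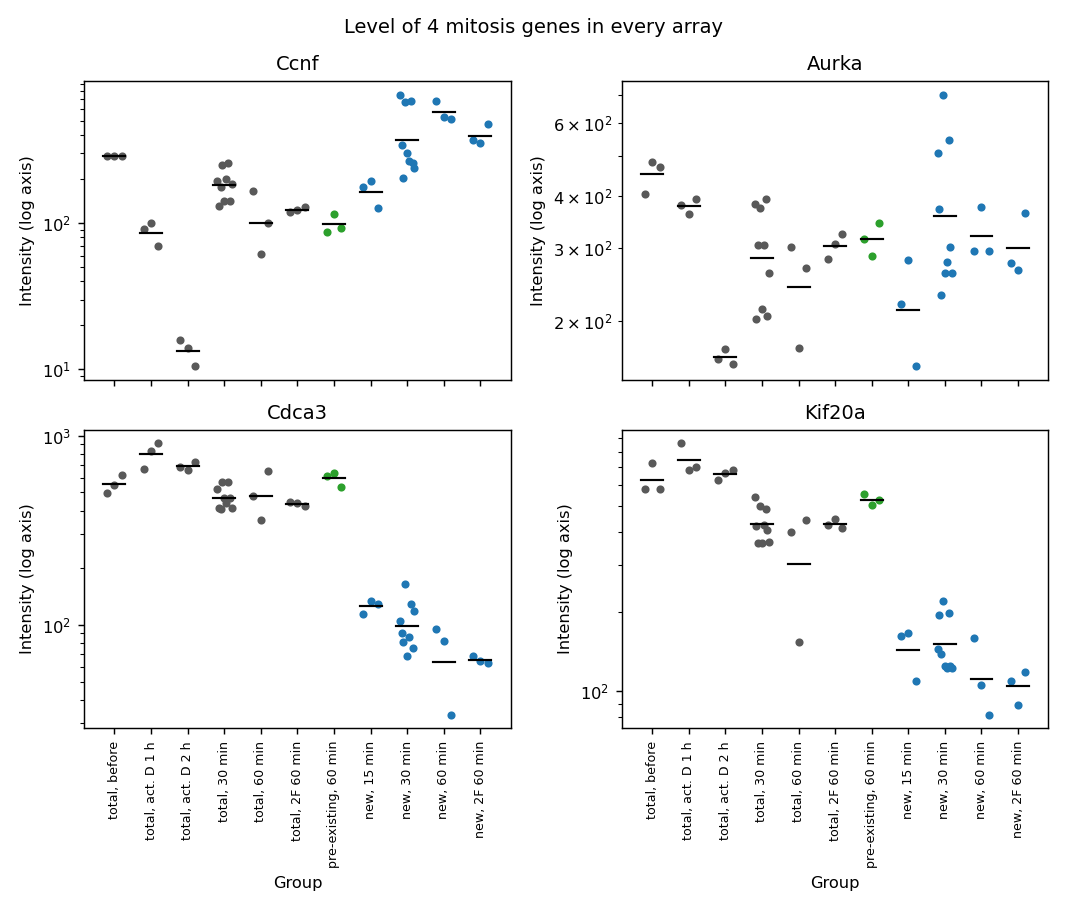
Intensity on a log axis (vertical) of Ccnf, Aurka, Cdca3 and Kif20a on every array of the 11 groups (horizontal); each point is an array, grey for total, green for pre-existing and blue for newly transcribed RNA, and bars are geometric means. Ccnf sits at 10.6 to 15.8 after 2 h of actinomycin D and at 354 to 683 in newly transcribed RNA at 60 min, whereas Cdca3 lies at 164 or below on all newly transcribed arrays and at 358 or above on the others.

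Of the 25 genes of the other lists called lower after 2 h of actinomycin D, 12 were higher in newly transcribed RNA of the 2F experiment, 13 were not called and 0 were lower, beside 18.8% higher and 22.5% lower among all genes. Kif18b (0.59), Kif18a (0.98) and Fam83d (0.08) were among the 13. Fbxo5 was higher in newly transcribed RNA by 1.91 ± 0.11, Wee1 by 1.54 ± 0.10, Cdc25a, a further Cdk-activating phosphatase, by 1.51 ± 0.14, E2f7 by 2.00 ± 0.08 and E2f8 by 1.43 ± 0.10. By list, 6 of 23 APC/C genes were lower and 3 higher, led by Anapc11 (-2.79) and Anapc13 (-2.75) below. Among other kinetochore and spindle genes 11 of 43 were lower and 3 higher, led by Cenpm (-2.63) and Spc24 (-2.61) below. Among other regulators 3 of 23 were lower, led by Cdkn3 (-3.05), and 3 higher. Of the transcriptional regulators 0 of 17 were lower and 3 higher, of condensin and cohesin genes 1 of 20 was lower (Ncaph2, -2.34) and 1 higher (Pds5a, 1.24), and of G1/S genes 7 of 43 were lower and 6 higher.

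The enrichment itself was compared between the 2F 60 min and the 30 min experiments with an interaction term. At 2-fold 0 of 41 genes were called in limma, beside 71 lower and 256 higher of the 8253 genes tested. At an unadjusted p below 0.05 there were 5 lower and 3 higher, beside 409 and 1897 of all genes. At any fold, 2 were lower in the 2F experiment and 1 was higher, against 2.17% and 11.4% of all genes. Cenpa gave -0.91 ± 0.16 (adjusted p = 0.000889) and Pttg1 -0.83 ± 0.18 (adjusted p = 0.00487), so both were poorer in newly transcribed RNA after 60 min than after 30 min. Ndc80 gave 0.65 ± 0.21 (adjusted p = 0.0444). With the 30 min arrays averaged in sets of 3 the adjusted p was 0.0228 for Cenpa, 0.0360 for Pttg1 and 0.112 for Ndc80. Labelling time and 4sU concentration differ together between these experiments and cannot be told apart.

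Newly transcribed RNA after 15 min was compared with that after 30 min, both at 500 µM. Of 41 mitosis genes 4 were lower at 15 min and 0 higher, against 8.93% and 1.83% of all genes, with a median of -0.39 beside -0.30 for all genes. Ect2, the exchange factor that activates RhoA at the cleavage site, measured 352, 356 and 285 at 15 min and 626, 701 and 945 (lowest, median and highest) at 30 min, without overlap (-1.17 ± 0.15, adjusted p = 0.000130). Ndc80 measured 64.4, 55.7 and 50.7 at 15 min and 98.6, 113 and 143 at 30 min, without overlap (-1.06 ± 0.15, adjusted p = 0.000168). Kif4, a chromosome-bound kinesin, measured 88.4, 87.1 and 58.4 against 124, 138 and 241 (-1.01 ± 0.21, adjusted p = 0.00182). Ccnf measured 178, 193 and 127 against 204, 301 and 756 (-1.17 ± 0.40, adjusted p = 0.0301). Averaging the 30 min arrays in sets of 3 left 3 lower, with Ccnf at an adjusted p of 0.0623, leaving out also the first or the second set left 2, and leaving out replicate 3 at 15 min left 1. Cenpa (0.65 ± 0.12) and Pttg1 (0.55 ± 0.17) lay on the other side, higher at 15 min by less than 2-fold.

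Pre-existing RNA at 60 min compared with total RNA shows what an hour of removing new RNA takes away. Of the 41 mitosis genes 0 were lower and 0 higher in limma, against 2.81% and 1.87% of all genes. At an unadjusted p below 0.05, 2 were lower and 1 higher, beside 755 and 1312 of the 8294 genes tested. Incenp was called lower without replicate 1 of total or of newly transcribed RNA. The median was -0.12, beside 0.16 for all genes. The lowest value was that of Incenp, with 1160.3, 1722 and 1289 in pre-existing and 1894, 4627 and 3358 in total RNA (-1.17 ± 0.34, adjusted p = 0.0619), and these groups did not overlap. These values rest on 1 probe set per gene. Of 32 other probe sets of the mitosis genes, only 14 had the same sign as the one used. Ccnf measured 87.6, 115 and 93.1 in pre-existing RNA and 165, 61.9 and 99.9 in total RNA, a difference of -0.04.

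A half-life can be read from the newly transcribed share after 60 min if that share is put on a scale, here by the line of pre-existing over total on newly transcribed over total RNA, and if total RNA stays constant. For the 39 mitosis genes whose mean log2 reached 7, the median half-life was 958 min, beside 756 min for all genes. With newly transcribed and total RNA of the 2F experiment it was 409 min, beside 326 min. Pre-existing RNA then still came from the first experiment, so that line mixes both experiments. Without replicate 1 of total RNA at 60 min the line turned upward and no half-life could be computed. The scale is therefore not fixed by these arrays. Ccnf had the shortest value, 107 min (95% interval 46.3 to 184 min, from the ratio alone) or 80.2 min with the 2F arrays. Its total RNA was lower than before treatment on the log2 scale, by -1.52 in the first 60 min experiment and -1.22 in 2F. Constant total RNA is therefore in doubt for Ccnf. Cdca3 and Ccnb2 had the longest half-lives in the first experiment, 4806 min and 4949 min. After actinomycin D, Ccnf fell over 2-fold within 1 h, and Kif20b, Aurka and Incenp within 2 h on the probe sets used. The half-lives of these last genes were 648, 504 and 655 min, or 215, 313 and 186 min with the 2F arrays. As scaled here, all of these exceed 2 h and both Ccnf values exceed 1 h, although the Ccnf interval includes 1 h. Because the scale is not fixed, these values cannot decide whether the half-lives and the falls after the drug disagree. This was not tested.

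Total RNA of labelled cells was compared with total RNA before treatment, which asks whether transcript levels differed between these groups. The arrays before treatment are titled as taken before actinomycin D, and no label ties them to the labelling experiments. Labelling, time and experiment thus differ together in these comparisons and cannot be told apart. These comparisons and those of actinomycin D share the same 3 arrays before treatment. At 30 min, 40 of 41 mitosis genes had a value below 0, beside 4228 of the 8361 genes tested. The median was -0.28 beside -0.004 for all genes, but 0 mitosis genes were called at 2-fold. At an unadjusted p below 0.05 there were 19 lower and 0 higher, beside 549 and 647 of all genes. Ect2 (-0.68) was lower at any fold, 1 of 41 against 0.658% of all genes, and had an adjusted p of 0.255 with the arrays averaged in sets of 3. In the 2F experiment again 40 of 41 were below 0, beside 4036 of 8361 genes, with a median of -0.37 beside 0.01. There Ccnf alone was called lower (-1.22 ± 0.29, adjusted p = 0.0300), 1 of 41 against 0.239% of all genes. Its intensity was 119 to 129 in 2F and 286 to 289 before, without overlap. The standard error pools all total RNA groups of the fit. For Ccnf the standard deviation of log2 was 0.009 before and 0.058 in 2F, but 0.71 at 60 min and 0.35 at 30 min. The Ccnf call was lost with the 30 min arrays averaged in sets of 3 (adjusted p = 0.0629) and without any single array before treatment or of the 2F group. At any fold Kif11 (-0.97), the kinesin that pushes spindle poles apart, and Ect2 (-0.82) were lower as well, 3 of 41 against 0.730%.

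By array, the median of the 41 mitosis genes relative to the mean before treatment was -0.37 to -0.34 on the 3 arrays of the 2F group and -0.52 to -0.14 on the 9 arrays at 30 min. It was -0.09 to 0.09 on the arrays before treatment, and these ranges did not overlap. The arrays before treatment enter the mean they are set against, which draws their own values toward 0. The 9 arrays at 30 min resemble each other in sets of 3 and may not be 9 separate values. The gap between the ranges was not tested. In the first 60 min experiment the median was -0.15 to 0.03 and overlapped with the range before treatment. After actinomycin D it was 0.04 to 0.06 at 1 h and -0.13 to -0.09 at 2 h. In the G1/S list the medians were -0.28 to -0.20 in the 2F group and -0.40 to 0.001 at 30 min, beside -0.14 to 0.13 before treatment.

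**Figure D4:**
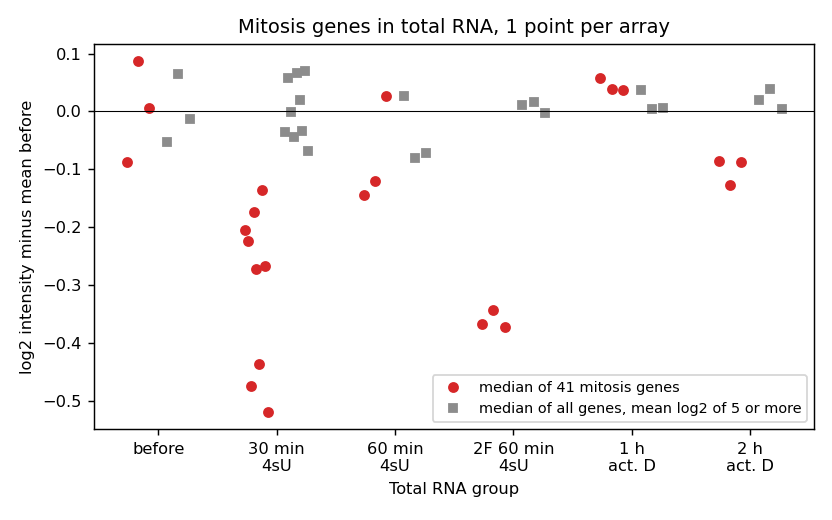
Median log2 intensity minus the mean before treatment (vertical axis) of the 41 mitosis genes (circles) and of all genes (squares) on each array of total RNA, by group (horizontal axis). The circles of the 2F and 30 min groups lie at -0.14 or lower, below those before treatment, while the squares of all groups lie between -0.08 and 0.07.

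In total RNA of the first 60 min experiment, 2 of 41 mitosis genes were lower than before treatment, against 4.05% of all genes. Ccnf was lower by -1.52 ± 0.29 (adjusted p = 0.00280). Kif20a measured 399, 154 and 444 against 581, 723 and 579 before treatment (-1.05 ± 0.28, adjusted p = 0.0189). With the replicate number as a block the Kif20a adjusted p was 0.0609 and 1 gene was left, and without replicate 2 of total RNA at 60 min the Kif20a value was -0.57. The Kif20a call was also lost without untreated replicate 2 (-0.95) or replicate 3 (-1.11). Without replicate 1 of that group 3 genes were lower and 2 higher. In this experiment the passenger complex genes pointed both ways, with Incenp at 0.77, Cdca8 at 0.72 and Aurkb at -0.76, and the arrays are those that agreed least with each other. Other probe sets of the mitosis genes had the same sign as the one used in 16 of 32 cases.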

How the data were processed

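The deposited values are intensities made with GCRMA, per the submitters' processing notes, with its version not given in the sources used here, and their log2 was taken. Of 31451 probe sets, 61 control probe sets were left out, and 25031 had exactly 1 symbol in the platform annotation, 690 several and 5669 none. All 41 genes matched RefSeq by Entrez identifier. Ccnb1 had no probe set under its own symbol alone and was not analysed here. Precision is limited by the number of arrays.

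For each experiment, lmFit and eBayes of limma 3.58.1 (R 4.3.3) were run with group as factor on probe sets whose mean log2 reached 5, a step that was tested on simulated data. The rule for naming gave values per array for genes called after actinomycin D and for up to 4 called genes of largest change in each direction of a comparison, and up to 2 per other list; genes shown beyond it (such as Ttk, Cdk1 and Cdc20) were chosen after their values were seen. The members, the 6 other lists (APC/C, condensin and cohesin, kinetochore and spindle, other regulators, transcriptional regulators, G1/S) and the tests were chosen with earlier results of these data known.

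No label says that replicate numbers mark shared cultures. In the data alone, deviations of same-numbered arrays had a correlation over 0.1 for each pair at 1 h (0.143 to 0.178) and at 2 h (0.267 to 0.588) in actinomycin D, and at 60 min for newly transcribed (0.147 to 0.302) and pre-existing RNA (0.243 to 0.404) against total RNA and for total RNA against before (0.122 to 0.330). Differently numbered arrays reached 0.045, 0.207, 0.250, 0.318 and 0.096 in the same order. For newly transcribed and for pre-existing RNA, only 2 of 3 arrays matched best with their own number. Alternatives were other folds, filters, scalings, probe set rules, the replicate block, single arrays left out and, added after seeing the data, the 30 min arrays averaged in sets of 3.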

Additional observations from a re-analysis of the deposited data

Results flagged for a closer look

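In groups of 9 arrays, 82 sets of values were searched for a single array far from the others, of which chance marks about 1 in 20, and 3 were found. Cdc25b had its highest value in newly transcribed RNA at 30 min on replicate 4 (log2 7.51) and its lowest in total RNA at 30 min on replicate 2 (log2 6.85). Ccnb2 had its lowest value in total RNA at 30 min on replicate 9 (log2 7.72).

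The enrichment of newly transcribed over total RNA differed between the 2F 60 min and the 30 min experiments, by the interaction term in limma, for Cenpa (-0.91), Pttg1 (-0.83) and Ndc80 (0.65). Ndc80 did not pass with the 30 min arrays averaged in sets of 3 (adjusted p = 0.112).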

How the results depend on the processing

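Over 30 pairs of a named gene and a comparison, 520 values under alternatives kept the direction, 467 with the call and 53 without it. Part of this was fixed in advance. A lower fold threshold relabels the same fit and can lose neither direction nor call. Dropping the filter, fitting all 45 arrays together or leaving out an array outside the comparison does not change the log2 difference. The tally therefore overstates how far the alternatives tested these calls. Numbers of mitosis genes called, in either direction, moved as follows. At a fold of 1.5 they were 2 after actinomycin D at 1 h, 6 from 1 h to 2 h, 23 for newly transcribed against total RNA at 30 min, 20 in the 2F experiment, 9 at 15 min against 30 min, 1, 7 and 3 for total RNA at 30 min, 60 min and 2F against before, and 3 for the interaction. Of all probe sets at this fold, 5853 were lower and 5019 higher of 16044 at 30 min, and 5138 and 5534 of 16205 in 2F. At any fold the numbers of mitosis genes called were 10, 11 and 10 for actinomycin D at 1 h, 2 h and 2 h against 1 h, 29 and 35 for newly transcribed RNA at 30 min and 2F, 16 at 15 min, 1, 8 and 3 for total RNA, and 3 for the interaction. Of all genes at any fold, 4156 were lower and 2435 higher of 8226 at 30 min, and 3573 and 3285 of 8355 in 2F. They were 2705 and 563 of 7825 at 15 min, 1856 and 1105 of 8151 from 1 h to 2 h, and 862 and 623 of 8361 for total RNA at 60 min. With the mean of all probe sets the numbers of mitosis genes called were 2 at 1 h, 10 for newly transcribed RNA at 60 min and 1 for the interaction. The filter at a mean log2 of 7 left 0 at 1 h, since Ccnf was then not tested. For pre-existing RNA, 1 was called with all 45 arrays in 1 fit. For total RNA at 60 min, 1 was called with median centring, the replicate block, 30 min replicates 1 to 3 or the averaged sets of 3. In the 2F group, 2 were called with quantile normalization or median centring, and 0 with 30 min replicates 1 to 3 or the averaged sets. At 15 min, 2 were called with 30 min replicates 1 to 3. The replicate block, which pairs same-numbered arrays, changed the number called by over 1.5 times in no other comparison.

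Leaving out 1 array at a time, or 1 set of 3 at 30 min, gave 1 after actinomycin D at 1 h, 3 to 4 at 2 h, 3 to 4 from 1 h to 2 h, 5 to 9 for newly transcribed RNA at 30 min, 9 to 15 at 60 min, 10 to 12 in 2F, 1 to 5 at 15 min, 0 to 1 for pre-existing RNA, 0 for total RNA at 30 min, 1 to 5 at 60 min, 0 to 1 in 2F and 0 for the interaction. The median half-life was 677 to 1458 min and 409 min with the 2F arrays.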
